A study of Mus musculus with 7 samples.

Results

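The genes described here act in cell polarity and spindle orientation. The set was chosen by symbol: cell fate determinants, the Par and Scribble polarity complexes, the cortical proteins that anchor the mitotic spindle, and dynein with its regulators. All 31 listed symbols were found among the 22680 genes of the deposited expression table. The RNA came from C57BL/6 fetal livers taken 13.5 days post coitum, from which LSK cells were sorted in a double sort. Wild-type and Uhrf1-/- LSK cells gave 3 libraries each, and wild-type LK cells gave 1. The LSK fraction, without mature lineage markers but with Sca-1 and c-Kit on the surface, holds the blood stem cells and early progenitors, while the LK fraction has c-Kit but no Sca-1 and is further along in differentiation. The sources used here name neither a Cre driver, nor the deleted part of Uhrf1, nor the number of fetuses per library. The study asked how loss of Uhrf1, a protein that brings the maintenance DNA methyltransferase to replicating DNA, affects stem cells, including the way they divide.

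A dividing stem cell can hand its contents to the daughters equally or unequally. The Par complex (Par3, Par6, atypical protein kinase C and Cdc42) marks one side of the cell cortex, and the Scribble, Dlg and Lgl proteins mark the other. Cortical Gαi binds LGN (encoded by Gpsm2), LGN binds NuMA, and NuMA recruits dynein and dynactin, which pull on astral microtubules and so turn the spindle. Fate determinants such as Numb, an inhibitor of Notch signalling, are then inherited unequally. In blood stem cells unequal inheritance has been described for Numb and for endocytic proteins such as Ap2a2. These proteins are placed and modified after translation, so RNA levels do not report on their position in the cell.

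The deposited values were scaled counts, with totals of 15556959 to 21017402 per library, and FPKM, fragments per kilobase of transcript scaled to the library's depth, which were used below because they allow levels of different genes to be compared. Values of a group are given from replicate 1 to 3, and mutant stands for Uhrf1-/- LSK cells. Uhrf1 itself read 63.0, 66.8 and 112.8 FPKM in wild-type LSK cells, against 10.2, 8.78 and 18.6 FPKM in the mutant and 115.9 FPKM in LK cells. Kit stood between 29.0 and 56.6 FPKM in wild-type LSK cells, between 24.4 and 27.9 FPKM in the mutant and at 30.5 FPKM in LK cells. The 8 LSK markers, led by Cd34, summed to between 441.6 and 649.9 FPKM in wild-type LSK cells and between 294.8 and 393.3 FPKM in the mutant, with no overlap, and to 167.9 FPKM in LK cells. Of the 8, 7 had a log2 difference below 0, with Cd48 and Meis1 near it (-0.02 and -0.05). Ly6a, which encodes Sca-1, went the other way (0.83). It stood at 56.8, 34.3 and 26.4 FPKM in the wild type, against 84.6, 96.4 and 36.9 FPKM in the mutant. In the LK library Ly6a was at 0.321 FPKM. Mature lineage markers (4 of 6) summed to between 3.68 and 6.92 FPKM in LSK cells, most of it from Itgam (3.45 to 6.71 FPKM), and the T cell marker Cd3e was listed at 0 throughout. Macrophage markers (8 found of 9 listed, led by C1qb) summed to 150.8, 74.7 and 1.17 FPKM in LSK cells of the wild type, against 36.3, 38.2 and 3.15 FPKM in the mutant. Megakaryocyte markers (5 of 5, led by Gp9) summed to between 40.9 and 106.7 FPKM in wild-type and between 115.6 and 169.7 FPKM in Uhrf1-/- LSK cells, and 1 of the 5, Itga2b, passed the test described below (3 with the replicate block). Of the LSK markers 0 passed, and with the block 1 did, Flt3, which was lower in Uhrf1-/- cells. Erythroid markers (6 of 7) summed to between 7.33 and 107.8 FPKM over the LSK libraries and to 996.2 FPKM in LK cells. Hba-a1 made up 79.5 FPKM of the highest LSK sum, in wild-type replicate 1, and 662.8 FPKM of the LK sum, and Klf1 27.1 and 306.7 FPKM. Klf1 had 27.1, 20.1 and 2.255 FPKM in the wild type, against 34.3, 38.9 and 33.6 FPKM in the mutant. Its ranges did not overlap, as for 10.8% of all tested genes (log2 difference 1.55, limma adjusted p = 0.942). Hba-a1 had a log2 difference of -0.19, with overlapping ranges. Hepatoblast markers summed to between 23.7 and 38.5 FPKM in all libraries, led by Trf (10.6 to 34.6 FPKM), while Alb was at most 2.62 FPKM. Stromal markers summed to between 1.74 and 3.17 FPKM, nearly all of it Pdgfrb, with Col1a1 at most 0.130 FPKM, and endothelial markers, led by Plvap, summed to between 8.51 and 28.4 FPKM in LSK cells. Wild-type LSK replicate 2 stood apart. Ribosomal protein genes took 4.56% of its scaled counts and between 10.3% and 15.4% of the other 6 libraries. What these marker levels and this library contribute to the differences below was not tested except where values without that library are given.

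None of the polarity and spindle genes changed between genotypes at the threshold used. Of the 31 members, 26 had a mean of at least 1 FPKM over the 6 LSK libraries and were tested with limma on log2(FPKM + 1) among 10608 genes, and 0 passed at an adjusted p of 0.05. The background was 0.17% of all genes (12 genes higher, 0.113%, and 6 lower, 0.0566%), so few calls could be looked for among 26 genes. At an unadjusted p under 0.05 there were 0 members without the replicate number as a block, against 5.57% of all genes, and 3 with it (Ndel1, Scrib and Stau1), against 12% of all genes. With the block 2.06% of all genes were called (1.23% higher and 0.83% lower) and again 0 members. Directions were divided, with 12 members above and 14 below 0 and a median log2 difference of -0.07, against -0.03 over all genes, of which 53.9% were below 0. Nor do the values show that the genotypes were equal. The 95% interval of the difference lay within 1 log2 unit of 0 for 18 of 26 members, against 59.6% of all genes, and reached past it for the other 8, which include Cdc42, Ndel1 and Scrib. These were bulk libraries, so fewer expressing cells and less RNA per cell cannot be told apart.

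**Figure D1:**
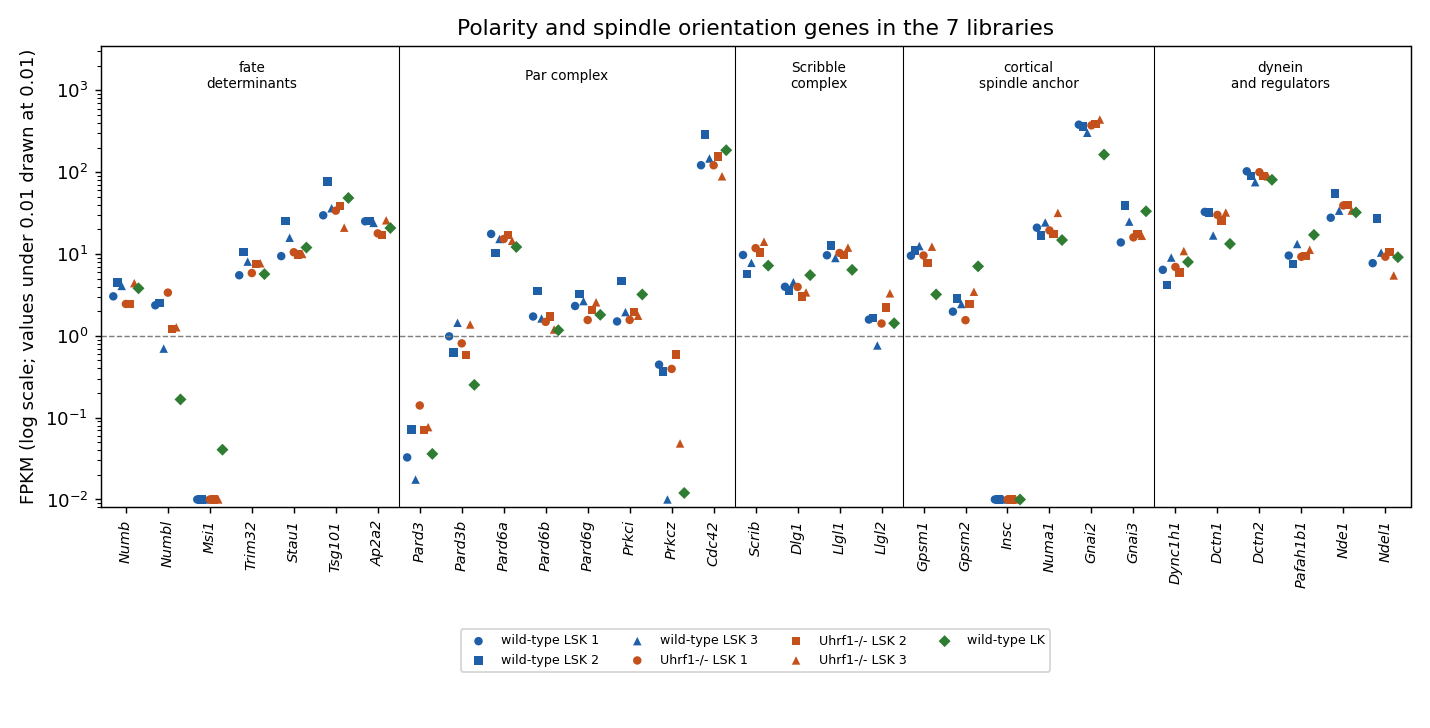
FPKM (log scale) of all 31 genes in each of the 7 libraries, grouped by role, with wild-type LSK in blue, Uhrf1-/- LSK in orange and wild-type LK in green. The dashed line marks 1 FPKM, the symbols mark the replicate number, and Insc lies at the bottom in every library.

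**Figure D2:**
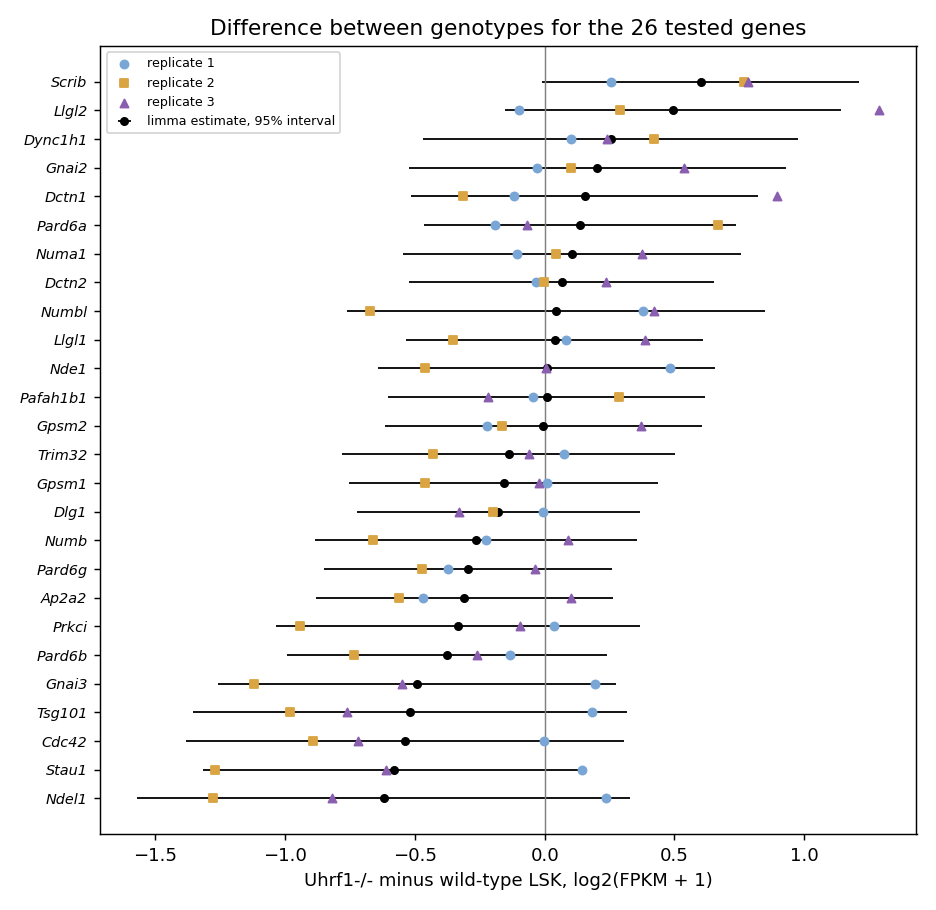
Difference between Uhrf1-/- and wild-type LSK cells on the log2(FPKM + 1) scale for the 26 tested genes, as the limma estimate with its 95% interval (black) and as the difference between libraries of the same replicate number (coloured). All 26 intervals include 0, and Scrib at the top and Stau1 and Ndel1 at the bottom lie farthest from it.

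Scrib, the scaffold of the basolateral polarity complex (Entrez gene 105782; chromosome 15, 76047162 to 76069784 of GRCm38), was the member whose genotypes were most separated. It stood at 9.74, 5.74 and 7.81 FPKM in the wild type, against 11.8, 10.5 and 14.1 FPKM in the mutant. Every Uhrf1-/- library was above every wild-type library, the only member of which this was so in either direction, where 10.8% of all tested genes had such ranges (4.61% higher and 6.16% lower). The means were 7.76 ± 2.001 and 12.1 ± 1.85 FPKM (SD, n = 3 each), a log2 difference of 0.60 (SE 0.28, 95% interval -0.01 to 1.21). It did not pass after adjustment in limma (adjusted p = 0.910, and 0.310 with the replicate block). Within replicates 1, 2 and 3 the log2 difference was 0.25, 0.77 and 0.78. The LK library had 7.22 FPKM, inside the wild-type LSK range.

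The partners of Scrib did not share a pattern. Llgl2, an Lgl protein of the same complex (chromosome 11, 115824029 to 115855780), stood at 1.58, 1.64 and 0.763 FPKM in the wild type, against 1.42, 2.23 and 3.31 FPKM in the mutant, with overlapping ranges and a log2 difference of 0.49 (limma adjusted p = 0.942). Its difference was 1.29 in replicate 3 and -0.10 in replicate 1. Llgl1, the more abundant Lgl gene, had 10.4 ± 1.99 and 10.7 ± 1.17 FPKM in the same order of genotypes (SD, n = 3 each). Dlg1, a membrane scaffold, had 4.04 ± 0.465 and 3.46 ± 0.479 FPKM. It was the only one of the 4 that lay above the wild-type LSK range in LK cells, at 5.52 FPKM.

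Among the fate determinants, Stau1 had the largest difference. Stau1, an RNA-binding protein that carries messenger RNAs within cells (Entrez gene 20853; chromosome 2, 166947549 to 166996315), stood at 9.43, 25.2 and 15.8 FPKM in the wild type, against 10.5, 9.90 and 10.02 FPKM in the mutant. The Uhrf1-/- libraries were close together and inside the wide wild-type range. The log2 difference was -0.58 (SE 0.33, limma adjusted p = 0.942, and 0.405 with the block), with -0.25 without wild-type replicate 2 and -0.92 without wild-type replicate 1. Tsg101, a subunit of the endosomal sorting complex ESCRT-I, was likewise highest in wild-type replicate 2, with 29.8, 77.4 and 36.3 FPKM in the wild type, against 33.9, 38.7 and 21.0 FPKM in the mutant. Its log2 difference of -0.52 became -0.12 without wild-type replicate 2, -0.79 without wild-type replicate 1 and -0.27 without mutant replicate 3.

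Numb (Entrez gene 18222; chromosome 12, 83794034 to 83921942) was present at a low level in every library. It stood at 3.04, 4.47 and 4.08 FPKM in the wild type, against 2.46, 2.46 and 4.41 FPKM in the mutant, with overlapping ranges (log2 difference -0.27, 95% interval -0.89 to 0.36). Its paralogue Numbl, which can stand in for Numb, varied more, with 2.37, 2.53 and 0.698 FPKM in the wild type, against 3.38, 1.22 and 1.27 FPKM in the mutant and 0.167 FPKM in LK. Numb was above Numbl in 6 of the 7 libraries, and in Uhrf1-/- replicate 1 the order was turned (a ratio of 0.727).

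Ap2a2, a subunit of the clathrin adaptor AP-2, was even across wild-type libraries and lower in Uhrf1-/- replicates 1 and 2. It stood at 25.2, 25.5 and 24.1 FPKM in the wild type, against 17.9, 17.0 and 25.9 FPKM in the mutant, so Uhrf1-/- replicate 3 had the highest LSK value and the ranges overlapped (log2 difference -0.31, limma adjusted p = 0.942). Trim32, a ubiquitin ligase inherited unequally by neural progenitors, had 8.05 ± 2.53 and 7.05 ± 1.04 FPKM (SD, n = 3 each). Msi1, an RNA-binding repressor of Numb translation in neural stem cells, was listed at 0 in all 6 LSK libraries and at 0.0406 FPKM in LK cells. Msi2, its relative in blood cells, was tested and had a log2 difference of 0.09.

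The Par complex was represented unevenly by its paralogues. Pard3 (chromosome 8), the scaffold that gives the complex its name, lay between 0.0175 and 0.141 FPKM in all libraries, on scaled counts of 1.43 to 11.4. Pard3b, its relative, had 0.986, 0.630 and 1.45 FPKM in the wild type, against 0.810, 0.584 and 1.38 FPKM in the mutant and 0.252 FPKM in LK. Neither reached the minimum for testing, Pard3b only just. Pard3b followed the replicate number in both genotypes, with replicate 3 highest and replicate 2 lowest, and differed by at most 0.13 log2 units between genotypes within a replicate.

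The Par6 adaptors were led by Pard6a, at 17.6, 10.3 and 15.3 FPKM in the wild type, against 15.3, 17.0 and 14.5 FPKM in the mutant. Pard6a was 2.92 to 12.2 times as high as Pard6b and 3.17 to 9.78 times as high as Pard6g over the LSK libraries, with the lowest ratios in wild-type replicate 2. Pard6b lay below the wild-type LSK range in LK cells at 1.17 FPKM, and Pard6g at 1.81 FPKM. None of the 3 passed between genotypes, with log2 differences of 0.14, -0.38 and -0.29, and that of Pard6b was -0.12 without wild-type replicate 2.

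Of the atypical protein kinases, Prkci was above Prkcz in every library. Prkci had 1.501, 4.67 and 1.95 FPKM in the wild type, against 1.57, 1.95 and 1.76 FPKM in the mutant, so that wild-type replicate 2 was the single high library. Its log2 difference of -0.33 turned to 0.02 without that library and was -0.57 without wild-type replicate 1. Prkcz, under the minimum for testing, stood at 0.445, 0.365 and 0 FPKM in the wild type, against 0.395, 0.589 and 0.0484 FPKM in the mutant, with 0.0120 FPKM in LK cells. Replicate 3 of both genotypes and the LK library were thus near 0, and the 4 other libraries were not.

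Cdc42, the small GTPase that activates the Par complex (Entrez gene 12540; chromosome 4, 137319696 to 137357759), was among the most abundant members. It stood at 121.9, 288.7 and 147.3 FPKM in the wild type, against 121.7, 155.1 and 89.2 FPKM in the mutant, with 186 FPKM in LK cells. Replicate 1 of both genotypes had nearly the same level, and the ranges overlapped. The log2 difference was -0.54 (SE 0.38, 95% interval -1.38 to 0.30, limma adjusted p = 0.942). It was -0.17 without wild-type replicate 2 and -0.33 without mutant replicate 3.

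Of the cortical anchor, Gnai2 was the most abundant of all members and Insc the least. Gnai2, an inhibitory G protein alpha subunit (Entrez gene 14678; chromosome 9, 107614125 to 107635391), had 381.5, 361.4 and 303.9 FPKM in the wild type, against 374.1, 387.6 and 440.7 FPKM in the mutant and 164.4 FPKM in LK. Gnai3 had 13.9, 39.3 and 24.9 FPKM in the wild type, against 16.0, 17.5 and 16.7 FPKM in the mutant and 33.3 FPKM in LK. The Uhrf1-/- libraries thus held 22.1 to 26.4 times as much Gnai2 as Gnai3, wild-type LSK libraries 9.21 to 27.5 times, and the LK library 4.93 times. Neither gene passed between genotypes, with log2 differences of 0.20 and -0.49 (limma adjusted p = 0.950 and 0.942), and that of Gnai3 was -0.15 without wild-type replicate 2 and -0.86 without wild-type replicate 1. The third inhibitory subunit gene, Gnai1, stood at or under 0.276 FPKM in every library.

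Insc, which links the Par complex to LGN in other tissues (Entrez gene 233752; chromosome 7, 114743688 to 114850380), was listed at 0 in all 7 libraries. Numa1, which joins LGN to dynein, had means of 20.7 ± 3.71 and 22.9 ± 7.81 FPKM, wild type first (SD, n = 3 each), and 31.9 FPKM in Uhrf1-/- replicate 3 was its highest value.

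LGN and its relative AGS3, encoded by Gpsm2 and Gpsm1, both bind Gαi, and LGN is the form known for orienting the spindle. Gpsm1 (Entrez gene 67839; chromosome 2, 26314611 to 26348237) had 9.53, 11 and 12.5 FPKM in the wild type, against 9.61, 7.73 and 12.3 FPKM in the mutant. Gpsm2 (Entrez gene 76123; chromosome 3, 108678270 to 108722331) had 1.98, 2.87 and 2.45 FPKM in the wild type, against 1.56, 2.45 and 3.46 FPKM in the mutant. Gpsm1 was 3.15 to 6.18 times as high as Gpsm2 in the LSK libraries of both genotypes. In the 1 LK library the order was turned, with 3.21 FPKM of Gpsm1 and 7.07 FPKM of Gpsm2, a ratio of 0.454. The genotypes did not differ beyond their spread in either gene, with log2 differences of -0.16 (95% interval -0.75 to 0.44) and -0.01 (-0.62 to 0.61).

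**Figure D3:**
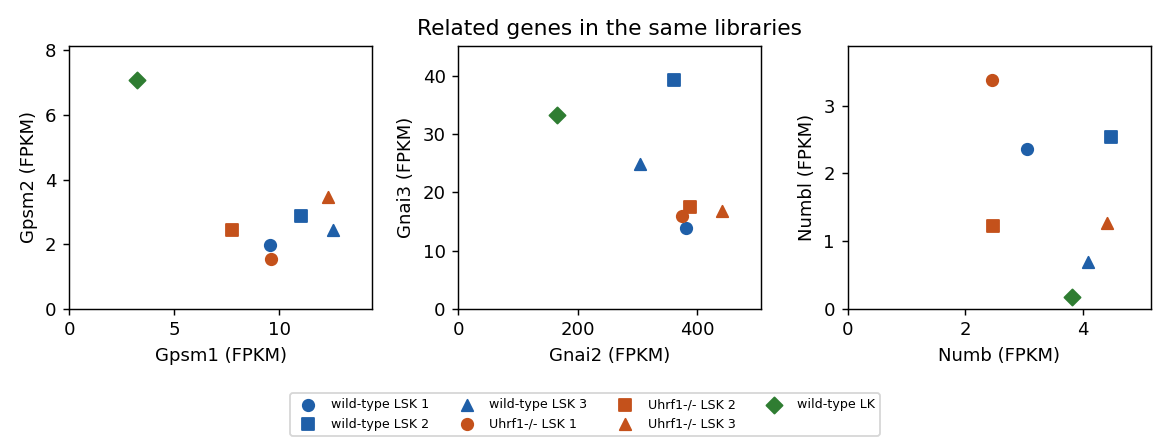
FPKM of Gpsm2 against Gpsm1, Gnai3 against Gnai2 and Numbl against Numb, with 1 point per library, coloured by group and shaped by replicate as in the plot of levels. The LK library lies apart from all 6 LSK libraries in the first panel, at 3.21 FPKM of Gpsm1 and 7.07 FPKM of Gpsm2.

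Because Uhrf1 acts on CpG methylation, stretches before an annotated start of Gpsm1, Gpsm2 and Insc are shown to let their CpG content be read. The order of Gpsm1 and Gpsm2 in the 1 LK library differed from that in the LSK libraries, and Insc was listed at 0. Neither Gpsm1 nor Gpsm2 passed between genotypes, and Insc was not tested. Each stretch runs from 180 to 31 bases before a transcription start in RefSeq (GRCm38.p6), 5′ to 3′ on the gene's strand, with CG in capitals. For Gpsm1 it is chr2:26315353-26315502 (plus strand, 10 CG), for Gpsm2 chr3:108722330-108722479 (minus strand, 11 CG) and for Insc chr7:114745586-114745735 (plus strand, 9 CG). Gpsm1 has 4 such starts, and the one with the most CG in its 300-base window was used. The Gpsm1 and Insc stretches lie inside the gene spans given above, before internal starts.
Gpsm1: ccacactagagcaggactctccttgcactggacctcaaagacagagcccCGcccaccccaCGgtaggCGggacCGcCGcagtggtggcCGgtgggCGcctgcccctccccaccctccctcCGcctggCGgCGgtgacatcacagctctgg
Gpsm2: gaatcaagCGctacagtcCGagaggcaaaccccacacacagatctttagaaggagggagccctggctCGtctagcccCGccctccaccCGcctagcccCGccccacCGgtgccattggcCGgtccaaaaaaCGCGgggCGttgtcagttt
Insc: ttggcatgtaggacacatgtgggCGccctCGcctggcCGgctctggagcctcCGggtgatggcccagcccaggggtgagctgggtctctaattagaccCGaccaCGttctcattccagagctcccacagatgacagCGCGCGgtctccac

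All 3 stretches are CpG-rich beside the median of 4 CG over windows of that place and length, of which 85.6% hold at least 1 CG. In the full 300-base windows, taking for each gene the start with the most CG, 25 of the 26 members with a RefSeq window had at least 10 CG, against 45.8% of 27025 genes. The exception was Dctn1, with 7. The 27025 genes, which also gave the median of 4 CG, were taken whatever their type or expression. All members are protein-coding genes. Whether the members differ from other expressed protein-coding genes in CG content was not tested. Of the members under 1 FPKM in every library, those with a window also had CG-rich ones. These held 19 CG for Insc, 31 for Prkcz and 42 for Pard3, against a median of 25 over the members. The other such member, Msi1, had no window. CG reads the same on both strands. These are counts of letters only, since DNA methylation was not measured here, and RefSeq starts need not be the ones used in these cells.

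Dynein and its regulators were all expressed above the minimum. Ndel1, which binds dynein and its regulator Lis1 (Entrez gene 83431; chromosome 11, 68821434 to 68853146), had the largest difference of any member on the log2(FPKM + 1) scale. At a pseudocount of 0.1 FPKM it was -0.67 and that of Llgl2 0.75, and on scaled counts they were -0.60 and 0.68. It stood at 7.74, 27.0 and 10.4 FPKM in the wild type, against 9.28, 10.6 and 5.47 FPKM in the mutant, with a log2 difference of -0.62 (SE 0.43, 95% interval -1.57 to 0.33, limma adjusted p = 0.942, and 0.383 with the block). Wild-type replicate 2 was again the high library. Without it the difference was -0.12, without wild-type replicate 1 it was -0.96, and without mutant replicate 3 it was -0.37. When pair 1 was left out of the blocked limma fit, Ndel1 and Stau1 passed (log2 differences of -1.05 and -0.94, adjusted p = 0.0177 and 0.0443), which rests on 2 libraries per genotype. In that fit 667 of 10648 tested genes were called in all, and 2 of 27 tested members. Nde1, the paralogue of Ndel1, was more abundant at 38.8 ± 14.2 and 37.6 ± 3.15 FPKM (SD, n = 3 each) and also highest in wild-type replicate 2, at 54.8 FPKM.

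The motor itself was lowest in that library. Dync1h1, the dynein heavy chain, had 6.41, 4.17 and 9.06 FPKM in the wild type, against 6.95, 5.92 and 10.9 FPKM in the mutant, so that replicate 2 was lowest and replicate 3 highest in both genotypes. Pafah1b1, which encodes Lis1, had replicate 3 highest in both genotypes as well, at 13.3 and 11.3 FPKM, and reached 17.2 FPKM in LK cells. Dctn1, the large dynactin subunit, had 32.8, 32.1 and 16.9 FPKM in the wild type, against 30.1, 25.6 and 32.2 FPKM in the mutant and 13.3 FPKM in LK. Wild-type replicate 3 was thus the single low LSK library for Dctn1, and without it the log2 difference went from 0.16 to -0.15. Dctn2, another dynactin subunit, was even, with 89.6 ± 13.6 and 93.2 ± 6.10 FPKM.

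It was counted how often wild-type replicate 2, or replicate 3 within both genotypes, held the highest or lowest value. Wild-type replicate 2 was the highest of the 6 LSK libraries for 12 of 26 members, among them Ndel1, Tsg101, Cdc42, Stau1, Gnai3 and Prkci, where this was so for 32.3% of all genes. It was the lowest for 5 members (Scrib, Dync1h1, Pard6a, Pafah1b1 and Numa1), against 23.9% of all genes. Without it the median difference was -0.07 over 27 tested members, and in the main fit it was -0.07 over 26. These medians are of different sets of members. Leaving that library out changed the sign of 6 members, none of which passed. Within replicate 3, which does not use that library, Ndel1, Tsg101, Cdc42, Stau1 and Gnai3 differed by -0.82, -0.76, -0.72, -0.61 and -0.55, and within replicate 1 by 0.24, 0.18, -0.0029, 0.14 and 0.19. The median difference within replicate 2 was -0.44, and within replicates 1 and 3 it was -0.0042 and -0.0099. Over all genes the same medians were -0.01, -0.05 and -0.05 in replicates 1, 2 and 3. Replicate 3 was highest within both genotypes for 4 members (Dync1h1, Gpsm1, Numa1 and Pafah1b1) and lowest for 2 (Dctn2 and Pard6b), against 21% and 21.8% of all genes.

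**Figure D4:**
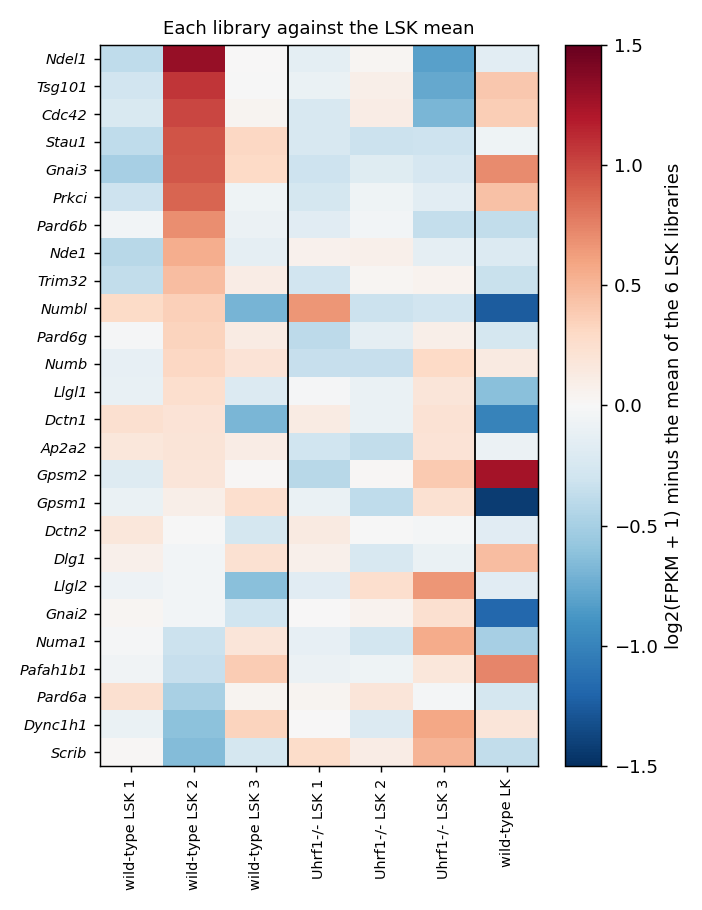
Log2(FPKM + 1) of the 26 tested genes in each library minus the mean of the 6 LSK libraries, with genes sorted by wild-type LSK replicate 2 and red above the mean. The column of wild-type replicate 2 runs from Ndel1, high, to Scrib, low, and the LK column differs from the LSK columns mainly in Gpsm2, Gpsm1, Numbl and Gnai2.

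LK and LSK cells of the wild type were compared without a test, since there was 1 LK library and hence no replicate check. Of 26 members that averaged 1 FPKM or more in the 4 wild-type libraries, 4 were at least 2-fold apart on the FPKM + 1 scale, against 21.9% of 10680 genes (7.84% higher and 14.1% lower). Gpsm2 was higher in LK cells (2.35-fold), and Gpsm1, Numbl and Gnai2 were lower (0.350, 0.407 and 0.473 times the LSK mean). Of the 26, 12 lay outside the range of the 3 wild-type LSK libraries, against 63.8% of all genes. Of these 3 were above it (Dlg1, Gpsm2 and Pafah1b1), against 33.7%, and 9 below, against 30.1%. For Gpsm2, Gpsm1, Numbl and Gnai2 all 3 Uhrf1-/- LSK libraries lay nearer to the wild-type LSK mean than to the LK value. These 4 genes were picked for the distance of LK from that mean, so no conclusion is drawn from this. For Numbl, wild-type LSK replicate 3, at 0.698 FPKM, itself lay nearer to the LK value of 0.167 FPKM. In the Uhrf1-/- libraries the lowest Gpsm1 value was 7.73 FPKM and the highest Gpsm2 value 3.46 FPKM. Their lowest Gnai2 value was 374.1 FPKM and their lowest Numbl value 1.22 FPKM.

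Other genes of these pathways, from lists that hold no member, gave 1 gene that changed without the block and 2 more with it, where 0.17% and 2.06% of all genes were called. The lists had 22, 11, 13, 14, 20, 18 and 6 tested genes, and each call was the only one in its list. With so few calls, no conclusion about the pathways is drawn. Cdc42ep5, a Cdc42 effector that binds septins, rose in Uhrf1-/- LSK cells. It stood at 1.08, 0.578 and 0.5003 FPKM in the wild type, against 5.94, 4.72 and 5.84 FPKM in the mutant, with 3.46 FPKM in LK cells. All Uhrf1-/- libraries were above all others, and the log2 difference was 1.93 (SE 0.25, limma adjusted p = 0.018). Its limma adjusted p was 0.058 to 0.107 when any single library was left out. With no filter on low values it was 0.115 and on the scaled counts 0.170. For Uhrf1, the deleted gene, these were 0.038 to 0.107, 0.129 and 0.022. With the replicate block Cdc42ep5 passed (limma adjusted p = 8.03e-05), also without pair 1, 2 or 3 (2.45e-08, 0.045 and 5.30e-06). It was 1 of 18 tested genes among 24 listed regulators and effectors of Cdc42, of which 7 were above and 11 below 0, with a median of -0.04.

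Notch1, the receptor whose signalling Numb restrains, had 12.4, 7.42 and 15.2 FPKM in the wild type, against 4.67, 4.18 and 4.89 FPKM in the mutant and 3.30 FPKM in LK. All Uhrf1-/- libraries were below all wild-type LSK libraries. The log2 difference of -1.14 passed with the replicate block (limma adjusted p = 0.016) and not without it (0.241), nor with the block when pair 2 (0.118) or pair 3 (0.231) was left out. Of 14 tested genes around Numb and Notch, 11 were below 0 (53.9% of all genes were), with a median of -0.39, and Notch1 alone passed. Within replicates 1, 2 and 3 their median was -0.12, -0.67 and -0.37, so it was farthest from 0 in the pair with wild-type replicate 2. The target gene Hes1 had 3.63, 4.2 and 2.02 FPKM in the wild type, against 1.81, 1.84 and 0.708 FPKM in the mutant (limma adjusted p = 0.738, and 0.083 with the block). Hes1, Msi2, Gnai1, Itga2b and Flt3 were named after their values were seen, as was Hba-a1.

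Dynll2, a dynein light chain, had 26.03, 11.6 and 14.5 FPKM in the wild type, against 39.9, 32.9 and 27.6 FPKM in the mutant. The ranges did not overlap, and the log2 difference of 0.97 passed with the block (limma adjusted p = 0.045) and not without it (0.532), nor in the blocked fit without pair 2 (0.412) or pair 3 (0.198). It was the single call among 22 tested subunits and partners of dynein and dynactin, of which 14 were below 0.

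The remaining pathway lists had 0 calls in limma with or without the block. Of 11 other apical and basal polarity genes, Mark3 and Lin7c, a kinase and an adaptor of cell polarity, had the lowest unadjusted p, with log2 differences of -0.48 and -0.46, and the ranges of Mark3 did not overlap (15.3 to 25.2 against 12.2 to 14.6 FPKM). Of 13 other spindle orientation genes, these were Mllt4, which encodes afadin, and Gpsm3, with 0.40 and 0.45. Of 20 tested AP-2, ESCRT and unequally inherited surface proteins, these were the tetraspanins Cd53 and Cd63, with -0.89 and 0.79. Of 6 planar polarity genes, these were the Dishevelled genes Dvl1 and Dvl2, with 0.48 and 0.32, and Dvl1 had ranges that did not overlap (9.91 to 11.1 against 13.9 to 15.9 FPKM). Unadjusted p-values under 0.05 were found for 1 gene in these 4 lists, Cd53. Of 14 mitosis markers, led by Kif23 and Nusap1 at -0.83 and -0.66, 10 were below 0 (against 53.9% of all genes), with a median of -0.21, and their summed level was highest in wild-type replicate 2, at 773.5 FPKM against 466 to 593.3 FPKM in the other LSK libraries.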

How the data were processed

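RNA from 7 sorted-cell libraries was sequenced by the study. The authors deposited 2 values per gene and library: FPKM, and a value headed count that is not whole and was treated as a scaled count signal. Of its values below 100 steps, 98.2% to 98.6% lay within 0.02 of a whole multiple of each library's most frequent value, and no count model was run. Totals divided by that step gave 16808501 to 25803042 estimated reads. Per the submitters' processing notes, TopHat2 2.0.9, Cufflinks 2.1.1 and mm10 were used. The sources used here name no annotation and no strand setting, and overlapping genes may share reads. By GENCODE M21, 10 members share exon bases with another gene, at most 8.81% of their exon length (Pard3b). FPKM depends on the other genes of a library.

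The genotype test was limma (version 3.58.1, R 4.3.3), two-sided, with trend and robust moderation, on log2(FPKM + 1) of all genes averaging 1 FPKM or more in the 6 LSK libraries, Benjamini-Hochberg adjustment over all genes and a threshold of 0.05. Fold changes on this scale understate the change of low genes. Intervals are not adjusted. The fit without the block was tested on simulated data. The planted changes were larger than the difference of any member, and no replicate effect was simulated. That test therefore does not cover differences as small as those of the members, or the pairing. The series describes 3 independent experiments, but animals per library are not named, so p-values measure the spread between libraries. Libraries of equal number deviated together from their groups' means (correlations of 0.349, 0.332 and 0.645). Those of unlike number gave 0.159 and 0.213 between replicates 1 and 2, and -0.591 to -0.287 with replicate 3. Replicate 3 thus stood apart, and pairs 1 and 2 were less clearly separated from each other. The numbers were read as pairs, a reading from the data, and a replicate block was fitted as an alternative.

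Members and lists were chosen with earlier results of these data known. Members are all named. Of other lists, genes called in either fit are named, or else the 2 of lowest p, and of cell markers the most abundant and some defining genes. Gene positions are from RefSeq, matched by gene ID for 31 of 31 members. A promoter window was found for 26. Of the listed symbols, 5 were not matched and were not analysed here.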

Additional observations from a re-analysis of the deposited data

How the results depend on the processing

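Members, of which 18 to 29 were tested depending on the setting, had 0 calls in limma under all settings run but 1. With the replicate block and without pair 1 there were 2 of 27, Ndel1 (log2 difference -1.05) and Stau1 (-0.94). The smallest adjusted p of a member was at least 0.279 when single libraries were left out, and 0.310 with the block. Over all genes, 18 were called, against 219 with the replicate block, 0 with no filter on low values, 33 on scaled counts, 9 without trend and robust moderation, and 0 to 4 when single libraries were left out. With the block, 667 of 10648, 20 of 10610 and 196 of 10528 tested genes were called without pairs 1, 2 and 3. With no filter, where limma called 0 genes, 967 had an unadjusted p under 0.05, and without wild-type replicate 1 or 2 these were 1504 and 470. All 18 genes were also called with the block. At a pseudocount of 0.1 FPKM and at a filter of 5 FPKM, 17 and 13 were called.

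Some members changed sign, and none of these passed. Most had differences near 0, and the largest was that of Prkci (-0.33). Gpsm2 became 0.036 with median-of-ratios scaling and 0.073 on scaled counts, and Llgl1 -0.010 on scaled counts. In the blocked fit without pair 1, Numbl, Gpsm2 and Nde1 became -0.13, 0.10 and -0.23. Without pair 2, Trim32, Pard6a, Gpsm2 and Pafah1b1 became 0.0080, -0.13, 0.075 and -0.13. Without pair 3, Numbl, Llgl1, Numa1, Dctn1 and Dctn2 became -0.15, -0.13, -0.032, -0.22 and -0.019. Leaving out single libraries, the difference ranged from -0.15 to 0.31 for Dctn1, -0.050 to 0.17 for Dctn2, -0.20 to 0.20 for Gpsm2, -0.055 to 0.18 for Llgl1, -0.20 to 0.28 for Nde1, -0.15 to 0.27 for Numa1, -0.30 to 0.23 for Numbl, -0.16 to 0.20 for Pafah1b1, -0.071 to 0.29 for Pard6a, -0.57 to 0.020 for Prkci and -0.36 to 0.058 for Trim32. The cause was not tested. The LK counts stayed within 1.5 times, at 12 to 18 members outside the LSK range and 4 or 5 at least 2-fold apart. The shares over all genes were computed in the main setting only. Leaving out a wild-type LSK library cannot widen the LSK range, and so cannot lower the count outside it. The level of Pard3 rests on scaled counts of at most 11.4 per library.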
